A study of Mus musculus with 53 samples.

Results

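The genes described here encode subunits of the GABA-A receptor: the alpha subunits Gabra2, Gabra3, Gabra4, Gabra5 and Gabra6, the beta subunits Gabrb1 and Gabrb2, and the delta subunit Gabrd. They were chosen by symbol, and 7 of the 8 listed genes had a row among the 12372 genes of the count table. Gabra6 was not analysed here. RNA was sequenced from brainstem, cerebellum, cortex and striatum of 14 male mice aged 74 to 77 weeks, giving 53 libraries with at most 1 per mouse and region. The SCA3 mice were hemizygous MJD84.2 animals, a C57BL/6 line with a human ATXN3 gene on top of the mouse Atxn3 gene. The human gene carries an expanded CAG repeat and is driven by its own human promoter. The study reported no overt motor symptoms near this age, although its beam-walking tests had ended at a younger age. The controls were wild-type C57BL/6 animals, and all mice had gone through behavioural tests. Wild-type mice contributed 8 brainstem, 7 cerebellum, 7 cortex and 8 striatum libraries, and SCA3 mice 6, 6, 6 and 5.

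The GABA-A receptor is a chloride channel made of subunits around a central pore and is the main fast inhibitory receptor of the brain. Most receptors join alpha and beta subunits with a gamma or a delta subunit, and the choice of alpha subunit sets where the receptor sits and which drugs act on it. Receptors with alpha2 or alpha3 are found mainly at synapses, whereas receptors with alpha4, alpha5 or delta lie largely outside them and carry the tonic inhibition of granule cells, thalamic relay cells and striatal projection neurons.

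Libraries held 31.7 to 76.7 M counts (M, mega), and a subunit gene had between 42 and 29589 counts in a library. Levels are given in CPM, read counts scaled to a common normalised library total. Defining markers were checked against the region labels. All 13 cerebellar libraries exceeded every other library in the summed CPM of 9 granule-cell genes (3890 to 6134 against 208 to 516). The 11 striatal projection neuron genes overlapped between labels: striatal libraries spanned 2693 to 11224 summed CPM and the other libraries reached 4795, so that 10 of the 13 striatal libraries stood above all others. The 6 cortical glutamatergic genes did so in 11 of 13 cortical libraries (516 to 2107 against at most 814). Of 10 brainstem genes listed, 1 (Chat) had a row, so that label could not be checked by its markers. A pair of striatal libraries stood apart, those of wild-type mice 7267058 and 7267059, with 2178 and 3553 summed CPM over 11 thalamus genes against 454 to 798 in the other striatal libraries. In brainstem, the libraries of SCA3 mouse 7267054 and wild-type mouse 9083373 had the highest granule-cell sums, 492 and 383 CPM against 237 to 293. In brainstem the libraries of SCA3 mice 9083514 and 9083515 and wild-type mouse 7267055 had the highest thalamus sums, 1285 to 1402 CPM against 841 to 1209. Values without the first 4 of these libraries are given where a call changed or where they held the highest or lowest values of a member. Mouse Atxn3 was called higher in SCA3 in striatum alone (log2 fold change 0.33, SE 0.06, FDR 0.000116), and as the transgene is human this row does not check the genotype labels.

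The members lie in clusters of the mouse genome (build GRCm38). Gabra2 (chr5:70958392-71095849, minus strand), Gabra4 (chr5:71569734-71658308, minus) and Gabrb1 (chr5:71657921-72149572, plus) share a cluster with Gabrg1. Gabrb2 (chr11:42419515-42632591, plus) lies 98442 bases from Gabra6. Gabra5 (chr7:57407669-57591016, minus) lies beside Gabrg3, and Gabra3 (chrX:72432676-72656919, minus) between Gabre and Gabrq. Gabrd (chr4:155384979-155398098, minus) stands alone, and its span shares 6000 bases but no exonic base with Cfap74. Gabra5 shares 148 exonic bases with the noncoding RNA Gm9962. Gabra4 and Gabrb1 are transcribed away from each other from overlapping ends, sharing 388 bases of which 46 are exonic in both, and as counting did not use strand, reads over those bases cannot be assigned to either gene.

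Promoters are printed for Gabra4 and Gabrb1, because these neighbours with overlapping starts had the strongest and the weakest regional pattern among the alpha and beta genes of the cluster, for Gabra2 as the third member there, and for Gabrb2, whose level split the brainstem libraries. Each window runs from 250 bases before an annotated start to 50 bases after it (RefSeq, GRCm38.p6), 5′ to 3′ on the strand of the gene. For Gabra4, Gabrb1 and Gabra2 this start is the 5′ end of the span given above. For Gabrb2 it lies inside the span. Capitals mark matches on either strand. The GC box was searched as GGGCGG. The letters taken for a TATA box were TATAAA. The windows of 6 members were at hand.
Gabra4 chr5:71658259-71658558, minus strand: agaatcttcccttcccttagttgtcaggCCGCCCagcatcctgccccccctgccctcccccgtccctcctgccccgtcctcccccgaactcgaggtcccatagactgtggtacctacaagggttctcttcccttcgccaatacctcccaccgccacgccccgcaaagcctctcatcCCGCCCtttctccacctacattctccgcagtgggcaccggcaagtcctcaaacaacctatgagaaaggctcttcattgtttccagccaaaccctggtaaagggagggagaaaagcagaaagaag
Gabrb1 chr5:71657671-71657970, plus strand: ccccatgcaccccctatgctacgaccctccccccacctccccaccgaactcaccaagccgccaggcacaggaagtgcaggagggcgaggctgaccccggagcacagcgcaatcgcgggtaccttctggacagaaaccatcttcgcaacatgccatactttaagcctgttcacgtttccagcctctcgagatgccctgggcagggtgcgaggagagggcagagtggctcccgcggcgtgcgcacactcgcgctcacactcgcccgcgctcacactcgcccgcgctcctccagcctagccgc
Gabra2 chr5:71095800-71096099, minus strand: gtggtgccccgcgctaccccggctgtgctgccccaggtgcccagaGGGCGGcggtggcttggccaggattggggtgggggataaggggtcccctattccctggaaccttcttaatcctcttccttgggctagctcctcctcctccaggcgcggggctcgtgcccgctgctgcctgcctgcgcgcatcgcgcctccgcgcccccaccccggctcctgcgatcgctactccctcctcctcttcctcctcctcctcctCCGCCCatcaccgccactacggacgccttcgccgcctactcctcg
Gabrb2 chr11:42420190-42420489, plus strand: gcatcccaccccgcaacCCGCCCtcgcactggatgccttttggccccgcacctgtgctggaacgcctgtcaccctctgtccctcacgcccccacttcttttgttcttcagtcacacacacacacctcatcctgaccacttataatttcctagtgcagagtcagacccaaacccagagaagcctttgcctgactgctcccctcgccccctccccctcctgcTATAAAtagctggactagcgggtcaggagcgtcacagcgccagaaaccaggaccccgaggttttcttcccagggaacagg
The Gabra4 and Gabra2 windows held 2 GC boxes each, the Gabrb2 window 1 GC box and 1 TATA box, and the Gabrb1 window neither, although its GC content was 66% against 58.7% for Gabra4 and 70% for Gabra2. Windows at the further annotated starts of Gabrb2, not printed, held neither. The Gabrb1 window lies wholly inside the span of Gabra4. Of all 32817 promoter windows in the table, 35.6% held the GC box letters and 13.6% the TATA box letters. The letters TGACGTCA (the cAMP response element, in 1.79% of all windows) and CACGTG (an E-box, in 7.15%) were in none of the members' windows. These matches describe the sequence and are not evidence of binding.

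The level of each gene in wild-type mice was compared between the regions, with the likelihood ratio test of edgeR across all genes and all libraries. Regional differences were the rule in this dataset, between 34.4% and 72.6% of all genes being called at an FDR below 0.05 for a given pair, so a count of members near these shares says nothing particular about them. Cerebellum against brainstem called 5 of 7 members (72.6% of all genes), cortex against cerebellum 5 (69.7%), and striatum against cerebellum 6 (69.5%). Cortex against brainstem called 2 (65.4%), striatum against brainstem 5 (64.2%), and striatum against cortex 2 (34.4%). Libraries of 1 mouse are paired across regions, and with the mouse as a replicate block, random in limma-voom or fixed in edgeR on wild-type libraries, cortex against brainstem called 4 members, Gabra2 and Gabrb2 being added to Gabra4 and Gabrd. Without mouse 9083371, striatum against brainstem called 3 members. As these were pieces of tissue, fewer cells of a type and less RNA per cell cannot be told apart.

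**Figure D1:**
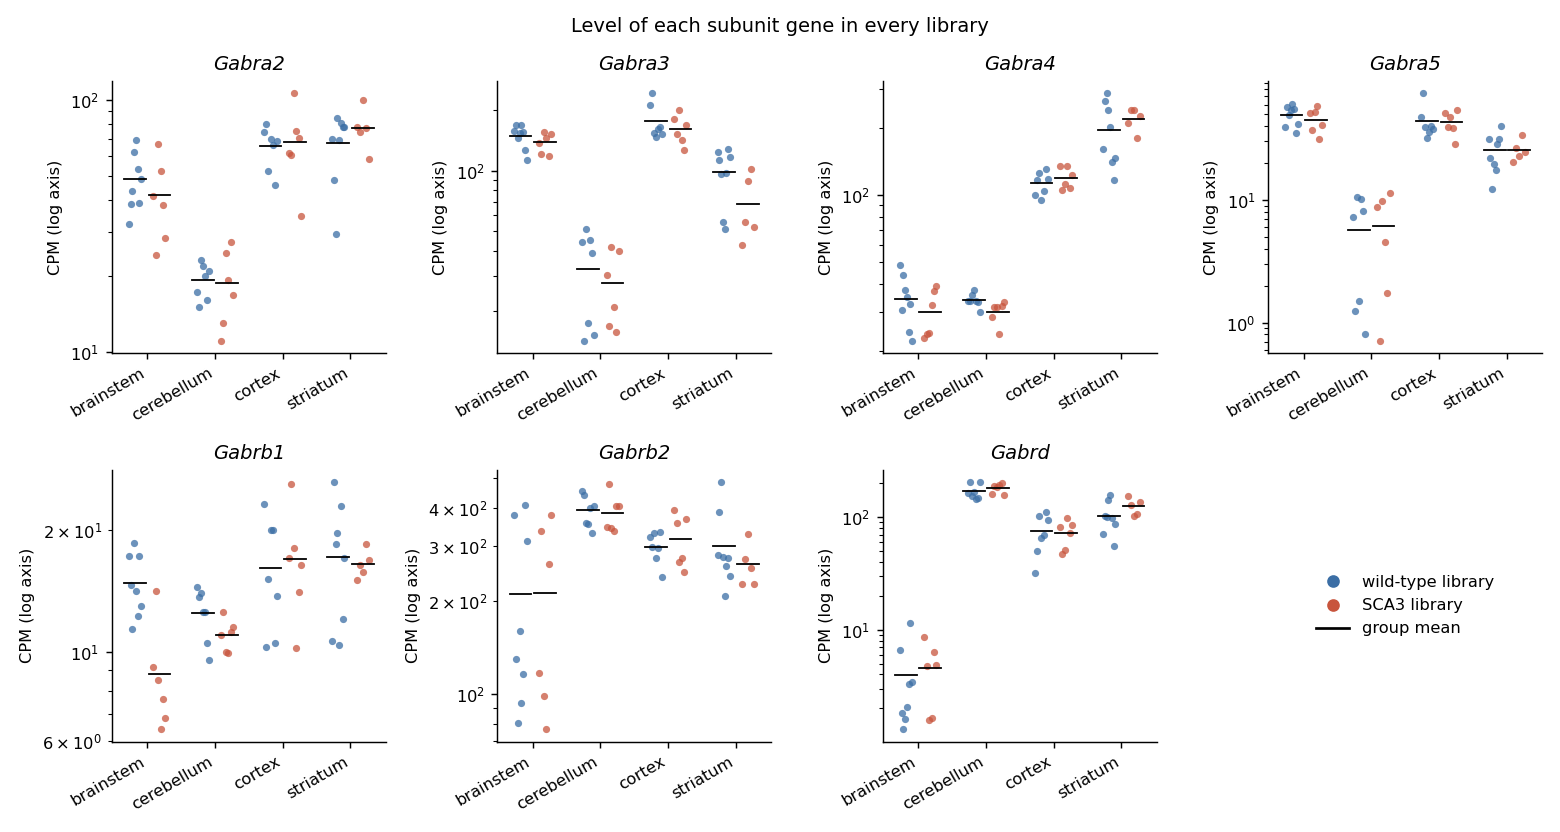
CPM of each gene in each library (points, log axis) by region, with wild-type libraries in blue, SCA3 libraries in red and a bar at each group mean. Gabrd was between 1.30 and 11.4 CPM in brainstem and at 32.0 CPM or more in every library of the other regions, Gabra5 and Gabrb2 split into high and low libraries in cerebellum and brainstem, and the SCA3 libraries of Gabrb1 in brainstem lie mostly below the wild-type ones.

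Gabra2 encodes alpha2, a synaptic subunit that carries the anxiolytic action of benzodiazepines. Its CPM in wild-type mice ran from 29.4 through a median of 74.0 to 85.0 in striatum, from 46.1 through 69.0 to 80.4 in cortex, from 32.1 through 46.0 to 69.1 in brainstem, and from 15.1 through 20.0 to 23.1 in cerebellum. Striatum and cortex overlapped almost fully, and every cerebellar library lay below every library of the other regions. Striatum exceeded cerebellum by 1.81 on the log2 scale (SE 0.21, FDR 7.19e-16), and brainstem exceeded cerebellum 2.51-fold (FDR 2.09e-09). Striatum and cortex did not differ beyond their spread (0.04, SE 0.21, FDR 0.903), and cortex against brainstem missed the threshold (0.44, SE 0.21, FDR 0.0537). The lowest striatal values, 29.4 and 47.9 CPM, were those of mice 7267059 and 7267058, which had the high thalamus sums, and without both libraries striatum exceeded cerebellum by 2.00 on the log2 scale (FDR 1.52e-20). The excess of striatum over brainstem (0.48, SE 0.20, FDR 0.029) was no longer called without any 1 of mice 7267055, 9083372, 9083373 and 9083375 (FDR 0.06 to 0.0898) or without the brainstem libraries of 7267054 and 9083373 (FDR 0.0591).

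Gabra3 encodes alpha3, a synaptic subunit of monoaminergic and brainstem neurons and of the thalamic reticular nucleus. In wild-type mice its CPM spanned 148 to 243 in cortex (median 161), 113 to 170.0 in brainstem (median 155), 51.6 to 129 in striatum (median 106) and 14.3 to 51.3 in cerebellum (median 39.2). Cortex and brainstem did not differ beyond their spread (0.24 on the log2 scale, SE 0.23, FDR 0.357). Brainstem exceeded striatum by 0.60 (SE 0.22, FDR 0.0132), a call lost without mouse 9083371 (0.47, FDR 0.0643), and striatum exceeded cerebellum by 1.60 (SE 0.23, FDR 9.78e-11). Cortex stood 5.45-fold above cerebellum (FDR 2.67e-21).

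Gabra4 encodes alpha4, the usual partner of delta in forebrain and thalamus. Its striatal CPM in wild-type mice ran from 117 through 181 to 286, its cortical CPM from 94.9 through 117 to 131, its brainstem CPM from 22.3 through 33.6 to 48.7 and its cerebellar CPM from 29.9 through 33.5 to 37.5. Every striatal and cortical library stood above every brainstem and cerebellar library, while striatum and cortex overlapped. Striatum exceeded cortex by 0.78 on the log2 scale (SE 0.15, FDR 2.94e-06), and cortex exceeded brainstem by 1.72 (SE 0.15, FDR 1.76e-28). Brainstem and cerebellum differed by 0.02 (SE 0.15, FDR 0.901). The highest striatal values, 286 and 265 CPM, were those of mice 7267059 and 7267058, and without both libraries the excess of striatum over cortex was 0.57 (FDR 0.000585).

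Gabra5 encodes alpha5, an extrasynaptic subunit best known from hippocampal pyramidal cells. Its CPM in wild-type mice spanned 35.2 to 61.2 in brainstem (median 51.9), 32.3 to 74.0 in cortex (median 39.3), 12.3 to 40.5 in striatum (median 25.3) and 0.813 to 10.6 in cerebellum (median 7.27). Brainstem and cortex overlapped and did not differ beyond their spread (0.17 on the log2 scale, SE 0.38, FDR 0.707), and the cerebellar libraries lay below all others. Brainstem exceeded cerebellum 8.65-fold (log2 difference 3.11, SE 0.38, FDR 3.79e-13), and striatum exceeded cerebellum by 2.16 (SE 0.38, FDR 1.83e-07). Cortex against striatum missed the threshold (0.78, SE 0.38, FDR 0.0935) but was called in limma-voom (FDR 0.0235). Striatum was below brainstem by 0.95 (SE 0.36, FDR 0.0169), a call lost without mouse 9083371 (FDR 0.0512) and without the striatal libraries of 7267058 and 7267059 (0.80, FDR 0.0657).

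The beta subunits carry the transmitter site together with alpha and anchor the receptor at the membrane. Gabrb1, for beta1, was the flattest member. Its wild-type CPM ran from 10.4 through 17.8 to 26.4 in striatum, from 10.3 through 15.2 to 23.2 in cortex, from 11.4 through 14.4 to 18.6 in brainstem and from 9.55 through 12.6 to 14.5 in cerebellum, so that all regions overlapped. None of the neighbouring regions in this order differed (log2 differences of 0.09, 0.12 and 0.25, FDR 0.728, 0.563 and 0.22), and 1 of the 6 pairs was called, striatum over cerebellum by 0.47 (SE 0.18, FDR 0.0184). That call was lost without mouse 7267058 (0.35, FDR 0.072), 9083372 (FDR 0.0672) or 9083375 (FDR 0.0631), and without the striatal libraries of 7267058 and 7267059 (0.31, FDR 0.133).

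Gabrb2, for beta2, a subunit of the commonest receptors of the brain, was highest in cerebellum. Its wild-type CPM spanned 332 to 454 in cerebellum (median 401), 207 to 485 in striatum (median 275), 238 to 335 in cortex (median 299) and 80.6 to 408 in brainstem (median 145). The brainstem values ran across the range of the other regions. Neighbouring regions in this order did not differ beyond their spread (log2 differences of 0.38, 0.01 and 0.51, FDR 0.199, 0.986 and 0.0812), and cerebellum exceeded brainstem by 0.90 (SE 0.27, FDR 0.00138). Without the striatal libraries of 7267058 and 7267059, the cerebellum also exceeded striatum (0.61 on the log2 scale, FDR 0.0465). Without the brainstem libraries of 7267054 and 9083373, the latter holding the highest brainstem value, cerebellum exceeded brainstem by 1.11 (FDR 5.02e-05), and cortex (0.72, FDR 0.0101) and striatum (0.73, FDR 0.00762) were also called above brainstem.

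Gabrd encodes delta, the subunit of extrasynaptic receptors in cerebellar granule cells and, with alpha4, in striatal and thalamic neurons. It had the widest regional range of the members. Its wild-type CPM ran from 145 through 163 to 205 in cerebellum, from 55.9 through 99.4 to 157 in striatum, from 32.0 through 69.7 to 112 in cortex and from 1.30 through 2.69 to 11.4 in brainstem, and the brainstem libraries lay below all others. Cerebellum stood 42.8-fold above brainstem (log2 difference 5.42, SE 0.32, FDR 4.01e-46), and cortex stood 4.25 above brainstem on the log2 scale (SE 0.32, FDR 2.74e-31). The highest brainstem value, 11.4 CPM, was that of mouse 9083373, and without the brainstem libraries of 7267054 and 9083373 these log2 differences were 5.88 (FDR 1.29e-64) and 4.70 (FDR 1.13e-45). Cerebellum exceeded striatum by 0.73 (SE 0.32, FDR 0.0301), a call lost with the mouse as a fixed replicate block (FDR 0.1), without mouse 7267055, 7267059 or 9083375 (FDR 0.0584 to 0.0881), and without the striatal libraries of 7267058 and 7267059 (FDR 0.0529). Striatum and cortex did not differ beyond their spread (0.44, SE 0.32, FDR 0.293).

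Levels of different genes were compared per kilobase of exon (RPKM), with the exons of GENCODE M21 transcripts that have a RefSeq match, which need not be the models used for counting. Values depend on the annotated length, which was longest for Gabrb1 (13.7 kb) and shortest for Gabrd (1.92 kb). In wild-type cerebellum Gabrb2 reached 98.3 ± 11.6 RPKM and Gabrd 88.3 ± 13.2 (SD, n = 7), whereas Gabra3, Gabra4, Gabra2 and Gabra5 had 8.85 ± 4.39, 8.23 ± 0.57, 3.29 ± 0.525 and 2.13 ± 1.63. With the longest annotated transcript as length, Gabrd in cerebellum came to 62.7 RPKM, the sole level of the 28 that moved by more than its SD. The cerebellum was thus led, per length, by a beta and the delta subunit among the members.

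In striatum Gabrb2 stood at 75.6 ± 22.6 RPKM, Gabrd at 53.0 ± 17.6 and Gabra4 at 47.4 ± 15.4 (SD, n = 8), ahead of Gabra3 (26.9 ± 8.14), Gabra2 (11.5 ± 3.27) and Gabra5 (9.54 ± 3.44). The order of Gabrd and Gabra4 turned with the longest annotated transcript as length, which gave Gabrd 37.6 RPKM. In cortex Gabrb2 had 75.1 ± 8.66, Gabra3 48.2 ± 9.98, Gabrd 39.2 ± 15.2 and Gabra4 27.5 ± 3.30 (n = 7). In brainstem Gabrb2 had 52.6 ± 33.7, Gabra3 40.8 ± 5.44 and Gabra5 18.4 ± 3.56, with Gabrd at 2.05 ± 1.80 (n = 8). Gabrb1 had the lowest mean of the members in each region, between 0.909 ± 0.134 and 1.25 ± 0.428 RPKM.

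**Figure D2:**
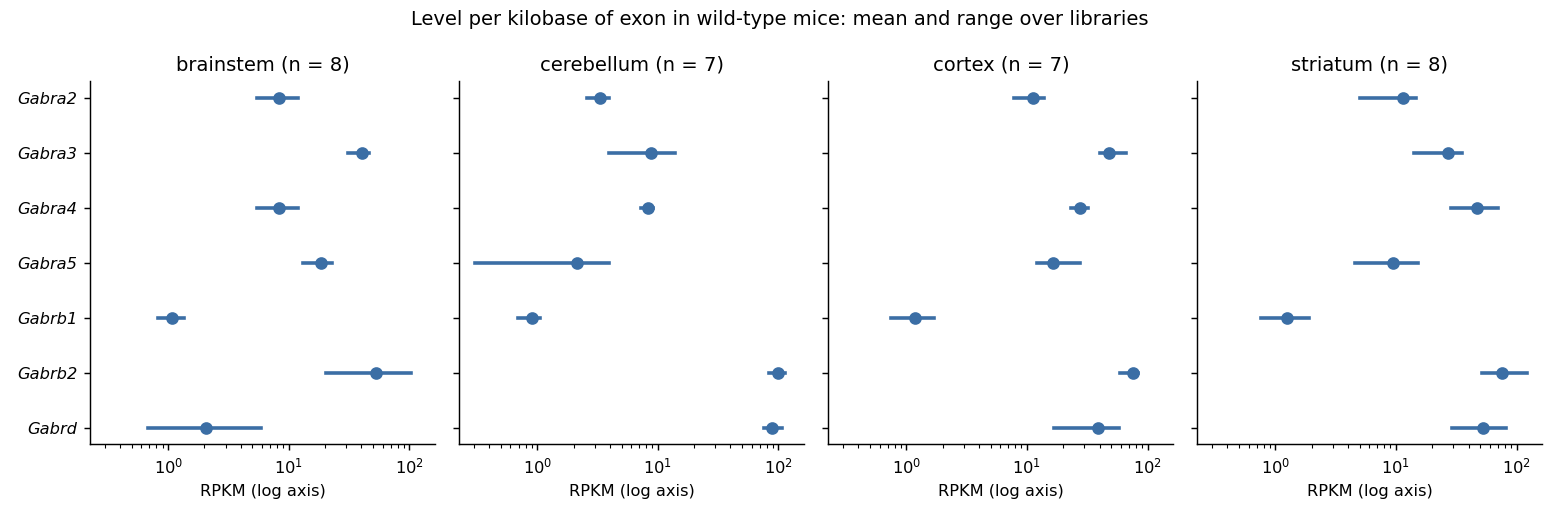
RPKM on a log axis of each member in wild-type mice, with the mean as a point and the range over libraries as a line. Gabrd moves from 2.05 RPKM in brainstem to 88.3 in cerebellum, while Gabrb1 stays near 1 in every region.

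The question of the study, what the transgene changed, was put to each region in turn. In brainstem 1 of 7 members was called, against 1.92% of all genes, and it was Gabrb1. The SCA3 libraries had 6.43, 6.86, 7.66, 8.53, 9.20 and 14.2 CPM, and the wild-type libraries 11.4, 12.2, 13.0, 14.1, 14.7, 17.3, 17.3 and 18.6. A set of 5 of the 6 SCA3 values lay below every wild-type value, and the sixth, that of mouse 7267056, lay inside the wild-type range. Gabrb1 fell by 0.75 on the log2 scale (SE 0.19, 95% interval -1.13 to -0.37, FDR 0.0121), from 14.8 ± 2.65 CPM (SD, n = 8) to 8.81 ± 2.82 (n = 6). A two-sided exact permutation test of the log2 CPM was run for this gene alone, after it had been called and on the same 14 libraries, so it is no independent support: the difference was -0.78 with p = 0.001998, the smallest possible p being 0.000333.

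Gabrb1 was called lower under 14 of 14 other settings (log2 difference -1.02 to -0.63, FDR 0.00274 to 0.0476) and in 12 of 14 fits that left out 1 mouse each. The FDR was 0.0718 without SCA3 mouse 9083514 and 0.0829 without SCA3 mouse 9083515, and the log2 difference was then -0.72 and -0.69. Without mouse 7267056 it was -0.94 (FDR 0.000403). Among the mice numbered 9083371 to 9083515, the fall was 1.02 on the log2 scale (FDR 0.006), with 6.43 to 7.66 CPM in 3 SCA3 libraries and 12.2 to 17.3 in 4 wild-type libraries. In this set all SCA3 mice were 74 weeks old and all wild-type mice 75, so genotype and age cannot be told apart there. Among the mice numbered 7267054 to 7267059, the 2 SCA3 values were 9.20 and 14.2 CPM and the 3 wild-type values ran from 11.4 to 17.3. Without the brainstem libraries of 7267054 and 9083373 the difference was -0.73 (FDR 0.0476).

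Other measures moved with genotype in brainstem as well. Every SCA3 mouse weighed less than every wild-type mouse. The RNA integrity number (RIN) was 7.4 to 8 in SCA3 and 6.3 to 7.6 in wild-type libraries (difference 0.546, two-sided exact permutation p = 0.01066). With RIN in the brainstem fit the Gabrb1 difference was -0.93 (FDR 0.00606), and with RIN at 7 or above it was -0.80 (FDR 0.00477). The summed CPM of 10 astrocyte genes, none of them at 0, was 3997 to 5898 in SCA3 and 4423 to 9372 in wild-type libraries, and that of 10 mature oligodendrocyte genes 9435 to 15944 against 10346 to 21461. Of these lists, 4 astrocyte and 2 oligodendrocyte genes were called lower. Of 8 microglial genes 1 was called lower, with sums of 335 to 423 CPM in SCA3 and 301 to 567 in wild-type libraries, and of 8 general neuronal genes 0 were called (1 at an unadjusted p below 0.05), with sums of 6144 to 8171 against 7168 to 9281. Gabrb1 is also the member with the longest annotated exons, and with an offset for exonic length in each library the difference was -0.63 (FDR 0.0159). The parts of cell composition and of body weight in the Gabrb1 difference were not tested.

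**Figure D3:**
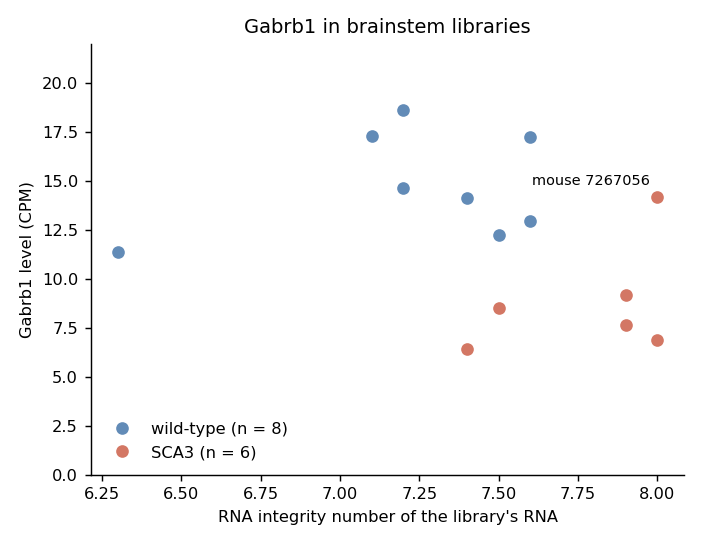
CPM of Gabrb1 in brainstem (axis from 0) against the RIN of each library, wild-type in blue (n = 8) and SCA3 in red (n = 6). All SCA3 points except mouse 7267056 (14.2 CPM) lie below the lowest wild-type point of 11.4 CPM. Where the RIN values of the genotypes overlap, between 7.4 and 7.6, the SCA3 points are those of mice 9083513 (6.43 CPM) and 9082853 (8.53 CPM). The other SCA3 points have a higher RIN than every wild-type point.

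The neighbours of Gabrb1 on chromosome 5 were not called. Gabra4 in brainstem had 22.9 through 28.2 to 39.1 CPM in SCA3 and 22.3 through 33.6 to 48.7 in wild-type libraries, so that the groups overlapped, with the highest wild-type values above every SCA3 value. The log2 difference was -0.20 (SE 0.16, 95% interval -0.50 to 0.10, FDR 0.624), and its sign depended on the mice, being 0.34 (FDR 0.459) among those numbered 9083371 to 9083515. Among those numbered 7267054 to 7267059 the groups did not overlap, with 22.9 and 23.9 CPM in SCA3 and 30.7 to 48.7 in wild-type libraries. Gabra2, the next member of the cluster, had a median of 39.9 CPM against 46.0 (log2 difference -0.21, 95% interval -0.63 to 0.22, FDR 0.746).

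The remaining brainstem members overlapped between genotypes. Gabra3 spanned 119 to 156 CPM in SCA3 against 113 to 170.0 in wild-type, and Gabra5 31.2 to 58.3 against 35.2 to 61.2. Gabrb2 spanned 76.6 to 378 against 80.6 to 408, and Gabrd 1.57 to 8.62 against 1.30 to 11.4. These ranges lay almost on top of each other. Their log2 differences were -0.10, -0.12, 0.01 and 0.22, with FDR between 0.843 and 0.991. With RIN in a fit of brainstem alone, Gabrb2 was at -0.97 (FDR 0.511) and Gabrd at -0.85 (FDR 0.672), so their direction turned. Without RIN, the 95% intervals of the last 2 reached from -0.54 to 0.56 for Gabrb2 and from -0.43 to 0.87 for Gabrd, which covers folds of 0.690 to 1.48 and of 0.740 to 1.83. Without the brainstem libraries of 7267054 and 9083373 the log2 difference was 0.35 for Gabrb2 (FDR 0.619) and 0.40 for Gabrd (FDR 0.589).

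In cerebellum none of the 7 members was called, by edgeR's likelihood ratio or quasi-likelihood test, DESeq2 or limma-voom, and none had an unadjusted p below 0.05 (0.0647% and 1.66% of all genes). Log2 differences ran from -0.23 for Gabra3 to 0.11 for Gabra5. Gabrb1 had 9.92 to 12.5 CPM in SCA3 and 9.55 to 14.5 in wild-type libraries (-0.18, 95% interval -0.57 to 0.21), so that the groups overlapped. Gabrd had 159 to 200.4 CPM against 145 to 205 (0.10, 95% interval -0.57 to 0.76), and Gabra4 23.8 to 33.0 against 29.9 to 37.5 (-0.17, 95% interval -0.48 to 0.14).

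In cortex the count was again 0 by edgeR, DESeq2 and limma-voom, and 0 at an unadjusted p below 0.05 (0.154% and 4.07% of all genes). Log2 differences lay between -0.12 for Gabra3 and 0.09 for Gabrb2. Gabrb1 had 10.2 to 26.0 CPM in SCA3 and 10.3 to 23.2 in wild-type libraries (0.07, 95% interval -0.32 to 0.46). Gabra4 was the most tightly bounded member, with 105 to 135 CPM against 94.9 to 131 and a difference of 0.08 (95% interval -0.23 to 0.39). The widest interval was that of Gabra5, from -0.81 to 0.78.

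In striatum, where 7.54% of all genes were called, none of the members was called by edgeR, DESeq2 or limma-voom. At an unadjusted p below 0.05 there was 1 member, Gabra3 (23.2% of all genes). Its SCA3 values were 43.0, 52.6, 55.5, 89.2 and 102 CPM, and its wild-type values ran from 51.6 through 106 to 129. Both groups split, with 43.0 to 55.8 CPM in 3 of 5 SCA3 and 2 of 8 wild-type libraries and 89.2 to 129 CPM in the rest. The log2 difference was -0.52 (SE 0.25, 95% interval -1.02 to -0.02, FDR 0.201), and the FDR ranged from 0.0814 to 0.862 over the other fits. The 5 low libraries were those with the highest sums of striatal projection neuron genes, 9781 to 11224 CPM against 2693 to 7070 in the others, and the part of dissection in this difference was not tested.

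Gabra4 in striatum had 181 to 240.3 CPM in SCA3, inside the wild-type range of 117 to 286 (0.17, 95% interval -0.15 to 0.49, FDR 0.546). Gabrd had 102 to 155 CPM against 55.9 to 157 (0.31, 95% interval -0.38 to 0.99, FDR 0.626). Gabra2 had 58.3 to 100.3 against 29.4 to 85.0 (0.20, 95% interval -0.25 to 0.66, FDR 0.622). Gabrb2 had 226 to 330 CPM against 207 to 485 (-0.20, 95% interval -0.78 to 0.38, FDR 0.725). Its highest wild-type values, 485 and 387 CPM, were those of mice 7267059 and 7267058. Over all fits the Gabrb2 difference ran from -0.29 to 0.07, and its sign changed in 2 of 28. Without the wild-type libraries of 7267058 and 7267059 the count of members called in striatum stayed at 0, and the log2 difference was 0.39 for Gabra4 (FDR 0.187), 0.30 for Gabrd (FDR 0.777) and 0.01 for Gabra2 (FDR 0.988).

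**Figure D4:**
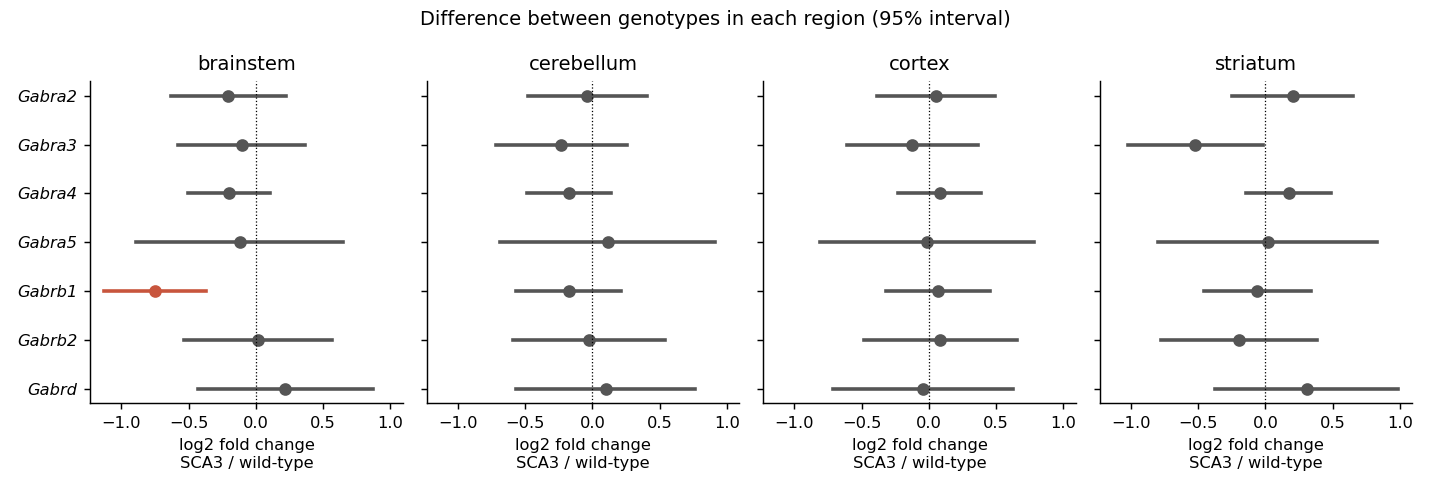
Log2 fold change of SCA3 over wild-type for each member in each region, as a point with its 95% interval. Gabrb1 in brainstem (red, -0.75) is the sole member called at an FDR below 0.05, and the intervals of the others include 0 except that of Gabra3 in striatum, which ends at -0.02.

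The combined test of genotype over the 4 regions called none of the members (4.73% of all genes). Gabrb1 came closest, with an FDR of 0.0629, and was called without mouse 7267056 (FDR 0.0043), without mouse 9083371 (FDR 0.0412) and among libraries with a RIN of 7 or above (FDR 0.0413). The test that the genotype effect differs between regions called none (0.218% of all genes), and the FDR for Gabrb1 was 0.367. A fall of Gabrb1 particular to brainstem was therefore not shown, although its log2 differences were -0.18 in cerebellum, 0.07 in cortex and -0.06 in striatum. For these tests the unadjusted p was below 0.05 for 1 member each, against 16.6% and 9.09% of all genes, and the quasi-likelihood test, DESeq2 and limma-voom also called none.

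Within a region and genotype, some members varied more between libraries than they did between genotypes. In brainstem Gabrb2 had 264 to 408 CPM in 6 libraries and 76.6 to 160.1 in the other 8. Gad1, which makes GABA, followed the same division, with 378 to 594 CPM in those 6 against 184 to 250.4 in the other 8. Chat, which makes acetylcholine and was the sole gene of the brainstem list with a row, had 0.750 to 7.48 CPM in those 6 libraries and 10.04 to 32.6 in the other 8. It was not particular to brainstem, with 16.5 to 35.4 CPM in wild-type striatum. The 3 brainstem libraries with the highest thalamus sums were among the 6. The high libraries were 3 of 6 SCA3 and 3 of 8 wild-type libraries.

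In cerebellum Gabra5 had 0.713 to 1.74 CPM in 5 libraries, 4.50 in a sixth and 7.27 to 11.4 in the other 7, and Gabra3 had 14.3 to 17.5, 21.0 and 30.5 to 51.3 CPM in the same libraries. The granule-cell sum was 4547 to 6134 CPM where Gabra5 was lowest, 5326 in the intermediate library and 3890 to 4596 where it was highest. Both genotypes were found on either side. In brainstem Gabrd was highest in the libraries of mice 9083373 (11.4 CPM) and 7267054 (8.62), which had the highest granule-cell sums (383 and 492 CPM). The part of dissection in these cerebellar and brainstem spreads was not tested.

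**Figure D5:**
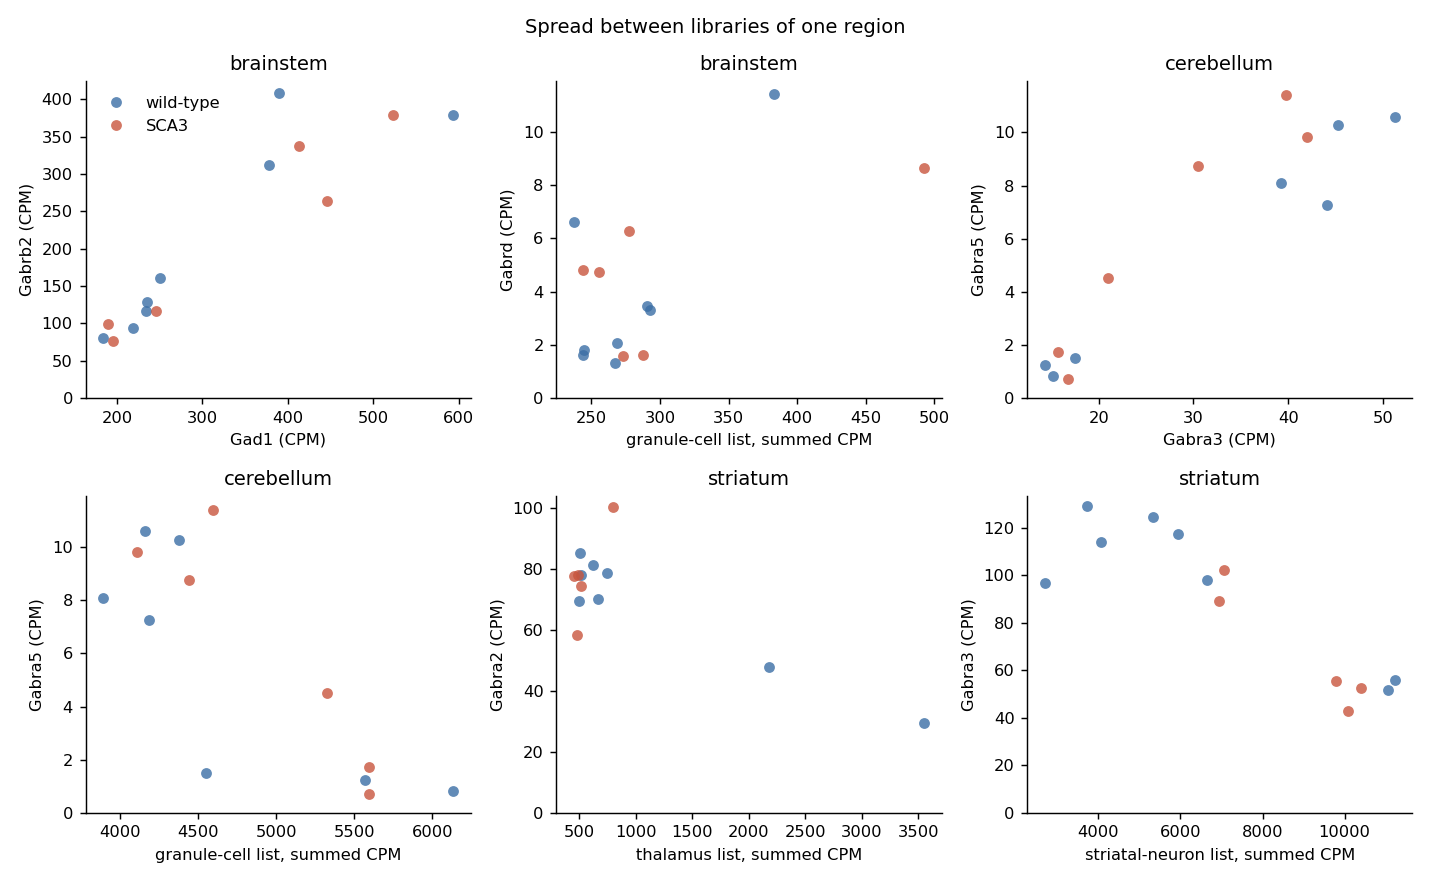
Each point is a library of the region in the panel title (blue wild-type, red SCA3), with the CPM of a member on the vertical axis from 0 and, on the horizontal axis, the CPM of another gene or the summed CPM of a marker list. Gabrb2 and Gad1 split the brainstem libraries the same way, Gabra5 and Gabra3 the cerebellar libraries, and in striatum the lowest Gabra2 values (29.4 and 47.9 CPM) go with the highest thalamus sums and the lowest Gabra3 values with the highest striatal sums.

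The other genes of GABA signalling were examined as lists. In brainstem, cerebellum and cortex no gene of the lists for receptor scaffold and trafficking (23 with a row), for GABA synthesis, transport and breakdown (8), or for chloride transport and GABA-B receptors (10) was called by edgeR's likelihood ratio test. At an unadjusted p below 0.05 the scaffold list had 2, 1 and 1 genes in these regions, the synthesis list 0 in each and the chloride and GABA-B list 2, 0 and 1, beside 13.3%, 1.66% and 4.07% of all genes. In striatum 1 of the 8 synthesis or transport genes was called, lower, and 1 of the 10 chloride and GABA-B genes, higher, beside 7.54% of all genes. The striatal count of the scaffold list is not reported here, and the genes named below need not be all that were called.

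Among the scaffold genes in striatum, Iqsec3, a gephyrin-binding exchange factor, had 109 to 173 CPM in SCA3 and 124 to 265 in wild-type libraries (-0.54 on the log2 scale, SE 0.13, FDR 0.00292). Kctd8, an auxiliary subunit of GABA-B receptors, had 22.1 to 31.9 CPM against 12.0 to 29.5 (0.54, SE 0.15, FDR 0.00853). Slc6a11, for the GABA transporter GAT-3 of astrocytes, had 99.6 to 240.2 CPM against 126 to 606 (-1.12, SE 0.34, FDR 0.027). These 3 genes overlapped between genotypes. Of 10 astrocyte genes, none of them at 0, 4 were called lower in striatum, with sums of 4706 to 5256 CPM in SCA3 and 4560 to 6516 in wild-type libraries, and the part of this in the Slc6a11 value was not tested.

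All 3 genes also moved with the striatal projection neuron sums. In the 5 libraries with sums of 9781 to 11224 CPM, which were 3 of 5 SCA3 and 2 of 8 wild-type libraries, Iqsec3 had 109 to 151 CPM, against 164 to 265 in the other 8. Kctd8 had 27.6 to 31.9 CPM in those 5 and 12.0 to 28.4 in the others, and Slc6a11 99.6 to 184 against 138 to 606. The part of dissection in these differences was not tested.

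Without the striatal libraries of 7267058 and 7267059, Iqsec3 was still called (-0.52, FDR 0.0136), and Kctd8 (0.39, FDR 0.109) and Slc6a11 (-0.85, FDR 0.207) were not. With the striatal libraries fitted alone none of the 3 was called (FDR 0.0926 to 0.198). Of 14 other settings, Iqsec3 was called in 9, Kctd8 in 8 and Slc6a11 in 6, and the highest FDR over all fits was 0.407, 0.705 and 0.405. Slc6a11 also lost its call in limma-voom (FDR 0.0641) and without any 1 of 7 mice (7267054, 7267056, 7267058, 7267059, 9083373, 9083514 and 9083515, FDR 0.0507 to 0.126), and Kctd8 without mouse 7267056 (FDR 0.0609) or 9083515 (FDR 0.0578).

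The genes most like each member across all 53 libraries were found by the correlation of log2 CPM, which is set mainly by the regions that libraries share. Gabrd was most like Ryr1 (r = 0.98), a calcium release channel, and Usp2 (0.96). Gabra3 was most like Miat (0.98) and Rasgrf2 (0.97), Gabra5 like Arhgdig and Miat (both 0.95), Gabra4 like Atp2b1 (0.96), and Gabra2 like Rps6ka2 and Fndc1 (both 0.91). Gabrb1 (Xkr4, 0.84, and Myo9a, 0.82) and Gabrb2 (Gad1 and Far2, 0.77 and 0.76) had the least close companions. In the 30 wild-type libraries, 7 of the 14 closest pairs were again among the first 2 of their member, and none of those of Gabra2 and Gabrb2. The value there for Gabrb1 and Myo9a was 0.67 and that for Gabrd and Ryr1 0.97.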

How the data were processed

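Poly-A RNA from each tissue piece was sequenced by the authors without strand information. Per the labels and the study's methods, reads were trimmed with cutadapt 1.10 and Sickle, aligned to GRCm38 with STAR 2.3.0e and counted per RefSeq gene with HTSeq 0.6.1. The deposited values are raw read counts per gene for genes with a mean CPM above 4, and 12372 genes passed, 7 listed subunits among them. Totals of 31.7 to 76.7 M counts were normalised by TMM. The table had 0 columns of other samples, and no libraries held identical values.

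Counts were fitted in edgeR 4.0.16 (R 4.3.3) with 1 mean per genotype and region, and contrasts were tested by likelihood ratio tests with Benjamini-Hochberg adjustment over all genes at an FDR of 0.05. Intervals are at 95%. Alternatives were quasi-likelihood tests, DESeq2 1.42.0, limma 3.58.1 voom, RLE normalisation, at least 10 counts in every library, RIN as a covariate or at 7 or above, each region or the wild-type libraries alone, and leaving out each mouse. Fits on the mice numbered 9083371 to 9083515 alone, on 1 region with RIN, with an exonic-length offset, and without the libraries that stood apart were added after the data were seen. Libraries of the same mouse were paired by the mouse number in the labels, and their deviations from the group means correlated with a mean r of 0.0904 to 0.186 over the 6 pairs of regions. Every member was named, and other genes were named where called in a pathway list or among the 2 most alike, except some that are not reported here. Members and lists were chosen with earlier results of these data known.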

Additional observations from a re-analysis of the deposited data

Results flagged for a closer look

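A sample far from the others of its group was found in 2 of 56 groups of a member, region and genotype, and chance flags about 1 in 20 groups. Gabra5 was at 74.0 CPM in the cortex of wild-type mouse 7267058, against 32.3 to 47.4 CPM in the other 6 wild-type cortices. Gabrb1 was at 14.2 CPM in the brainstem of SCA3 mouse 7267056, against 6.43 to 9.20 CPM in the other 5 SCA3 brainstems, and without this mouse the log2 difference from wild-type was -0.94 (edgeR, FDR 0.000403).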

How the results depend on the processing

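In brainstem the number of members called between SCA3 and wild-type ranged from 0 to 1 when 1 mouse was left out, being 0 without 9083514 or 9083515. For wild-type cortex against brainstem, 2 members were called, and 4 with the mouse as a replicate block in limma-voom and 4 with it as a fixed replicate block in wild-type libraries alone, while leaving out a mouse gave 2 to 3. For wild-type striatum against brainstem, 5 members were called, and 3 to 5 when a mouse was left out, the lowest without mouse 9083371. The other settings gave 4 to 6: 6, with Gabrb2 added, in limma-voom with and without the replicate block and with the fixed block, and 4, without Gabra5, when the striatal libraries of 7267058 and 7267059 were left out. The combined test of genotype called 1 member, Gabrb1, at a RIN of 7 or above, and 0 to 1 when a mouse was left out. The block changed no call between genotypes within a region. The cause of these shifts was not tested. No called value changed sign, and of 882 genotype values, called genes included, 79 did, all of members not called in that region. With RIN as a covariate in brainstem alone, Gabrb2 was -0.97 and Gabrd -0.85 on the log2 scale (FDR 0.511 and 0.672). Counts were lowest for Gabra5 in cerebellum and Gabrd in brainstem, with 42 in a library of each. With 5 to 8 mice a group, intervals of the log2 fold change were wide for Gabra5 and Gabrd.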
